A study of Mus musculus with 4 samples.

Results

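Glucocorticoid-responsive genes were followed across brain slices taken at rest and after photothrombotic (PT) injury, in which a light-activated dye clots the vessels of a small patch of cortex. The group held 10 of the 32285 genes counted: Fkbp5, Tsc22d3, Sgk1, Per1, Zbtb16, Ddit4, Cdkn1a, Sult1a1, Plin4 and the receptor gene Nr3c1. The genes were chosen by their annotated response to glucocorticoids together with values of these same slices. Those values were their levels in fibrotic and in Col1a1-free tissue and, above all, the difference of Fkbp5 between the genotypes at 21 days post injury (dpi). Their levels by tissue class and by genotype are therefore given as descriptions, without a test. All 10 were detected, and all 10 are described below.

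Levels came from Visium, a spatial assay in which barcoded spots capture the messenger RNA of a brain slice laid over them. Molecules were counted by unique molecular identifiers (UMIs), and levels are UMIs of a gene per 10000 UMIs of all genes. The 8 slices, 1 per mouse, lay on 4 capture areas with 2 slices each. Wild-type mice gave 1 uninjured slice (rest), 1 slice at 2 dpi, 2 slices at 7 dpi and 2 slices at 21 dpi, and Cthrc1(creER); R26(DTA) mice, here called deleter mice, gave 2 slices at 21 dpi. In deleter mice, cells that express Cthrc1 carry a tamoxifen-dependent Cre that switches on diphtheria toxin A. The study described the loss of these cells as not detectable in the slices, so the genotype is used here as a label and no loss is assumed. All injured mice had received anaesthesia and an opioid for surgery. The mice were of both sexes and adult, and the age of each mouse, the tamoxifen schedule of these deleter mice and the hour of collection are not given in the sources used here. Each time point after 2 dpi and each genotype lay on an area of its own, so area cannot be told apart from time or genotype.

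Glucocorticoids, corticosterone in mice, cross the cell membrane and bind the glucocorticoid receptor encoded by Nr3c1, which waits in the cytoplasm in a complex with Hsp90 chaperones. The bound receptor enters the nucleus, docks on short palindromic DNA elements and raises the transcription of nearby genes. The products of these genes dampen inflammation, shift metabolism and restrain the receptor itself. In the brain, several of them are known from astrocytes, oligodendrocytes and vessels. Most also answer to other inputs: Cdkn1a to p53, Ddit4 to low oxygen, Per1 to the circadian clock and to neuronal activity.

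The palindrome was looked for in promoters, because the bound receptor docks on elements of this kind. RefSeq windows (GRCm38.p6) of 300 bases, 250 before and 50 after a transcript start, existed here for 8 of the 10 genes, in 17 windows. The full element searched was AGAACA, 3 free bases and TGTTCT. It stood in 3 of all 32851 windows (0.00913%), and 1 of the 3 belonged to Sgk1. A half-site, AGAACA or TGTTCT on either strand, stood in 19% of all windows and in 5 of the 17 windows of these genes, those of Sgk1 (3 of 6), Sult1a1 (1 of 1) and Tsc22d3 (1 of 3). The full element contains 2 half-sites, so both counts include that Sgk1 window. The following 3 windows are shown, 5′ to 3′ on the strand of the gene, since they carry the full element or a half-site. Those letters are in capitals, except in the Sgk1 window, which holds 3 half-sites. There only the full element is in capitals, and the TGTTCT outside it, near the 5′ end, is in lower case.
Sgk1, chr10:21993640-21993939, plus strand, full element in capitals: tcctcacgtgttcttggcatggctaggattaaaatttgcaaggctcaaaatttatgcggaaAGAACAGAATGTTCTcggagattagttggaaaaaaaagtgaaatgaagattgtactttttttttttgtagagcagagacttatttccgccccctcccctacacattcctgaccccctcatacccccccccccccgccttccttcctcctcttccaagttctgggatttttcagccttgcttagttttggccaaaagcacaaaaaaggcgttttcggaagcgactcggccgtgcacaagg
Sult1a1, chr7:126676369-126676668, minus strand, both half-sites in capitals: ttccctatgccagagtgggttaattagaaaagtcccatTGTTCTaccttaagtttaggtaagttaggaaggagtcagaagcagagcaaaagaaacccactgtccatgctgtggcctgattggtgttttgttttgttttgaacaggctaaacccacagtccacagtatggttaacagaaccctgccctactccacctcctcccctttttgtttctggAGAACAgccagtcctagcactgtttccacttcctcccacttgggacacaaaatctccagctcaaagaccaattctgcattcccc
Tsc22d3, chrX:140600473-140600772, minus strand, half-site in capitals: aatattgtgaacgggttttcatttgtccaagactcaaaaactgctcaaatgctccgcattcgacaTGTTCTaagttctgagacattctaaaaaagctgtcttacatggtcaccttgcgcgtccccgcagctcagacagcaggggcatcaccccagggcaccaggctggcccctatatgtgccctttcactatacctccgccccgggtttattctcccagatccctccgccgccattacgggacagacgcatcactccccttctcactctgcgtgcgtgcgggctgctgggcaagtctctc
The element in the Sgk1 window began 189 bases before the start site. A match is a description of letters, and no binding was measured. The search took 1 exact spelling in 300 bases around a start site. A window without a match therefore says nothing about other spellings or about sites elsewhere.

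Spots were sorted by Col1a1, the collagen gene that marks fibroblasts in scars. Fibrotic spots held at least 5 Col1a1 UMIs per 10000, and Col1a1-free spots held none. Slices had 827 to 1726 spots over tissue, 11332780 to 23677298 UMIs, and a median of 12447 to 16158 UMIs per spot, except the slice at 2 dpi with a median of 2633.5. Fibrotic spots numbered 3 at rest, 26 at 2 dpi and 112 to 392 in the later slices, and Col1a1-free spots numbered 228 to 1641. The label was borne out by 5 other fibroblast markers (Col1a2, Col3a1, Dcn, Lum, Pdgfra), whose summed level in the 6 later slices was 37.8 to 105 in fibrotic spots and 1.03 to 1.22 in Col1a1-free spots. A spot covers several cells, so fewer cells of a type and less RNA per cell cannot be told apart. Intervals given with levels are exact 95% Poisson intervals and cover counting error only.

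Fkbp5 (chr17:28399094-28517527, minus strand) encodes a co-chaperone that lowers the receptor's affinity for hormone and so closes a feedback loop. In fibrotic spots its level was 0.378 (95% interval 0.258 to 0.533) and 0.464 (0.403 to 0.533) in the slices at 7 dpi. It was 0.255 (0.193 to 0.330) and 0.175 (0.130 to 0.231) in the wild-type slices at 21 dpi. It was 1.05 (0.929 to 1.18) and 0.782 (0.694 to 0.879) in the deleter slices. Both deleter slices thus stood above all 4 wild-type slices at 7 and 21 dpi. From low to high, neighbouring intervals overlapped up to the second slice at 7 dpi, and those of the deleter slices overlapped with none below. Relative to wild type at 21 dpi, the fitted difference was 2.11 on the log2 scale (SE 0.23), a fold of 4.31, with 2 slices against 2 and no test, since Fkbp5 was picked for this difference. It ran from 1.84 to 2.38 over the alternative settings, leaving out each slice included.

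The share of fibrotic spots with at least 1 Fkbp5 UMI followed the level. It was 63.7% (123 of 193 spots) and 54.7% (150 of 274) in the deleter slices, against 30.6% (52 of 170) and 20.7% (42 of 203) in wild type at 21 dpi. Median UMIs per fibrotic spot were 11111 and 12233 in the deleter slices and 10828 and 13879 in wild type. The part of depth was not tested. No spot carried the signal alone: the most Fkbp5 UMIs in 1 fibrotic spot were 7 in deleter slice 1 and 6 in deleter slice 2.

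**Figure D1:**
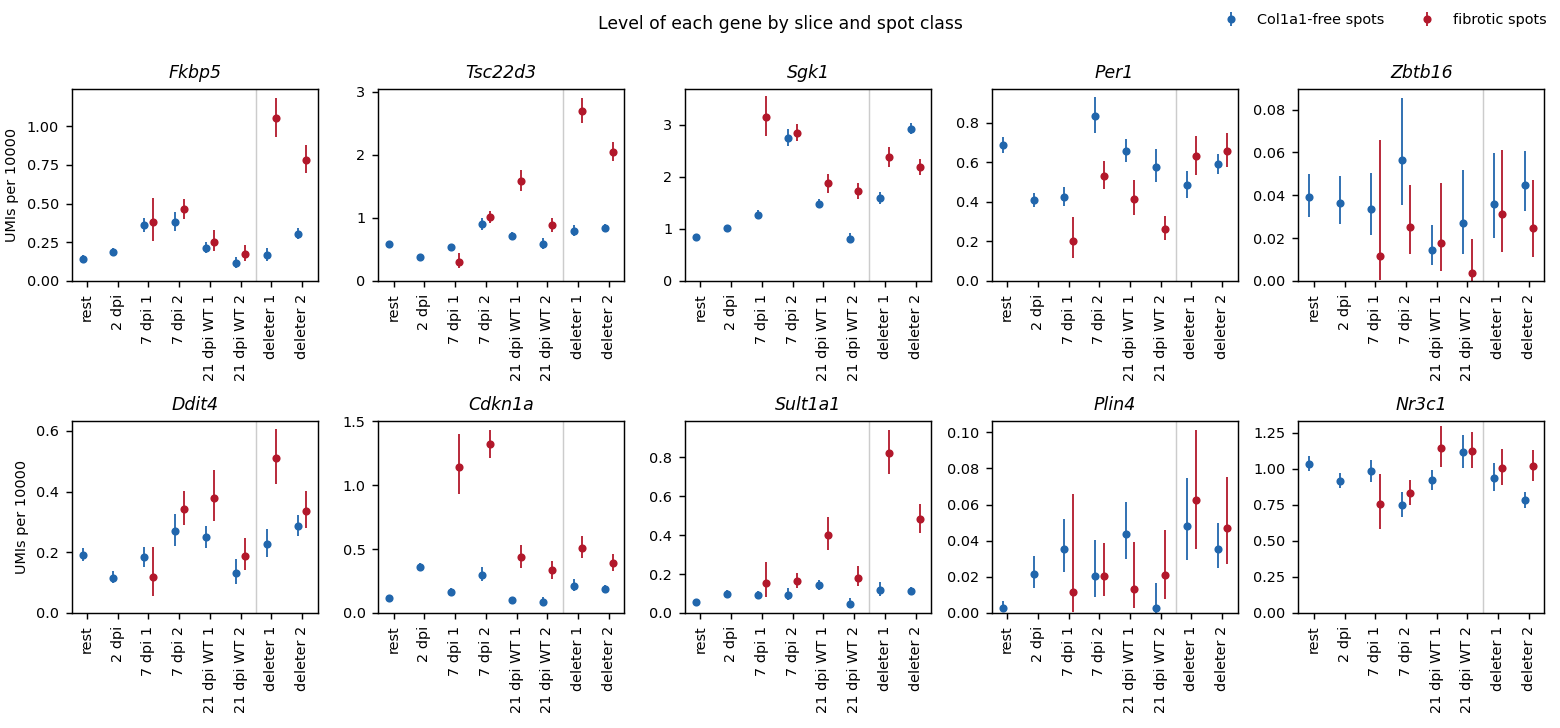
Levels of the 10 glucocorticoid-responsive genes in each slice, in UMIs per 10000, for fibrotic and Col1a1-free spots, with 95% Poisson bars. Fibrotic spots are not drawn for rest and 2 dpi, which had 3 and 26 of them; the 2 deleter slices lie highest for fibrotic Fkbp5, at 1.05 and 0.782.

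In Col1a1-free spots Fkbp5 was lower and less divided. Its level was 0.145 at rest, 0.189 at 2 dpi, 0.359 and 0.382 at 7 dpi, 0.215 and 0.115 in wild type at 21 dpi, and 0.169 and 0.302 in the deleter slices. The slices at 7 dpi were the highest there, deleter slice 1 lay within the wild-type slices at 21 dpi, and deleter slice 2 lay between these and the slices at 7 dpi. With 1 slice each, rest and 2 dpi were not tested against each other or against later times. Their intervals, 0.126 to 0.164 and 0.165 to 0.215, met without overlapping.

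The fibrotic level of Fkbp5 was 6.23 and 2.59 times the Col1a1-free level in the deleter slices. In wild type, slices at 7 dpi had ratios of 1.05 and 1.22, and slices at 21 dpi had 1.18 and 1.52. In deleter slice 1 the level fell with distance from fibrotic spots, from 1.05 within them to 0.488 at 1 to 2 array steps, 0.243 at 3 to 5 steps, 0.195 at 6 to 10 steps and 0.173 beyond. In deleter slice 2 it was 0.782, 0.405, 0.276, 0.281 and 0.319 over the same steps. In wild type at 21 dpi, slice 1 had 0.255 in fibrotic spots and 0.351 beyond 10 steps, and slice 2 had 0.175 and 0.152. At 7 dpi the corresponding values were 0.378 and 0.329 in slice 1 and 0.464 and 0.270 in slice 2. A decline of the size seen in deleter slice 1 was thus found in no wild-type slice at 7 or 21 dpi. Within fibrotic tissue of the deleter slices, spots above the median Col1a1 level of their slice had 1.33 and 0.828 Fkbp5 UMIs per 10000. Those below it, nearer the Col1a1 minimum, had 0.783 and 0.747. In deleter slice 2 these values were close, on 133 and 151 UMIs. In wild type at 21 dpi the values were 0.216 against 0.296, on 25 and 32 UMIs, and 0.160 against 0.191, on 23 and 27 UMIs. These counts were too few to set an order. At 7 dpi slice 1 had 0.332 against 0.430, on only 15 and 17 UMIs, and slice 2 had 0.554 against 0.374, on 122 and 82.

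**Figure D2:**
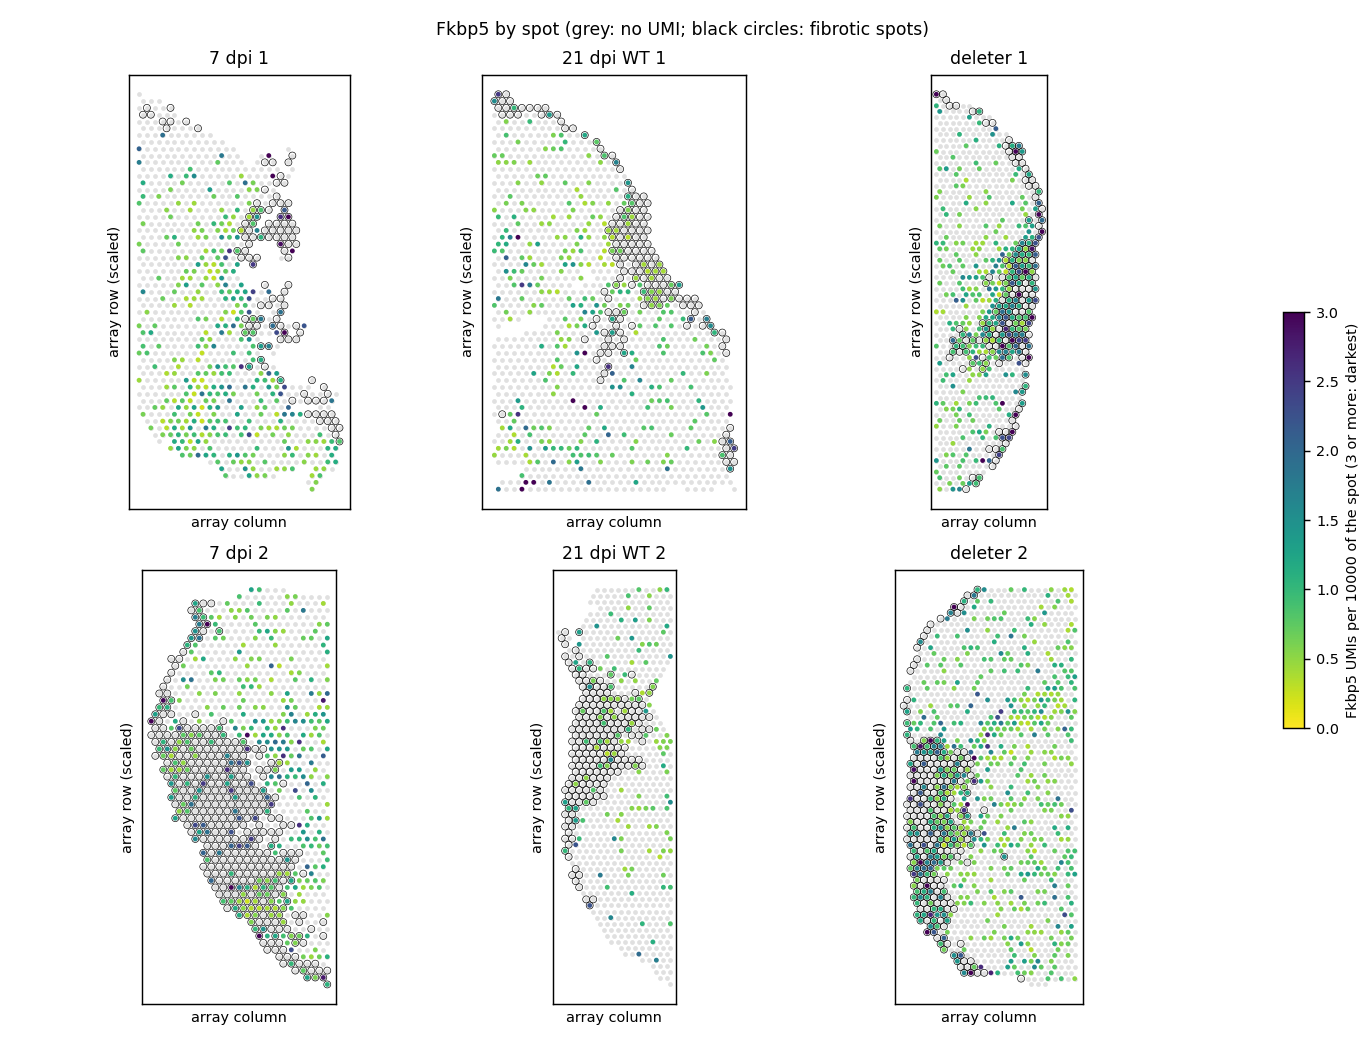
Fkbp5 UMIs per 10000 in every spot over tissue of the 6 slices at 7 and 21 dpi, by array row and column, with grey for spots without a UMI and black circles around fibrotic spots. A single UMI gives a high value in a shallow spot; of the fibrotic spots, 63.7% and 54.7% had a Fkbp5 UMI in the deleter slices and 30.6% and 20.7% in wild type at 21 dpi.

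**Figure D3:**
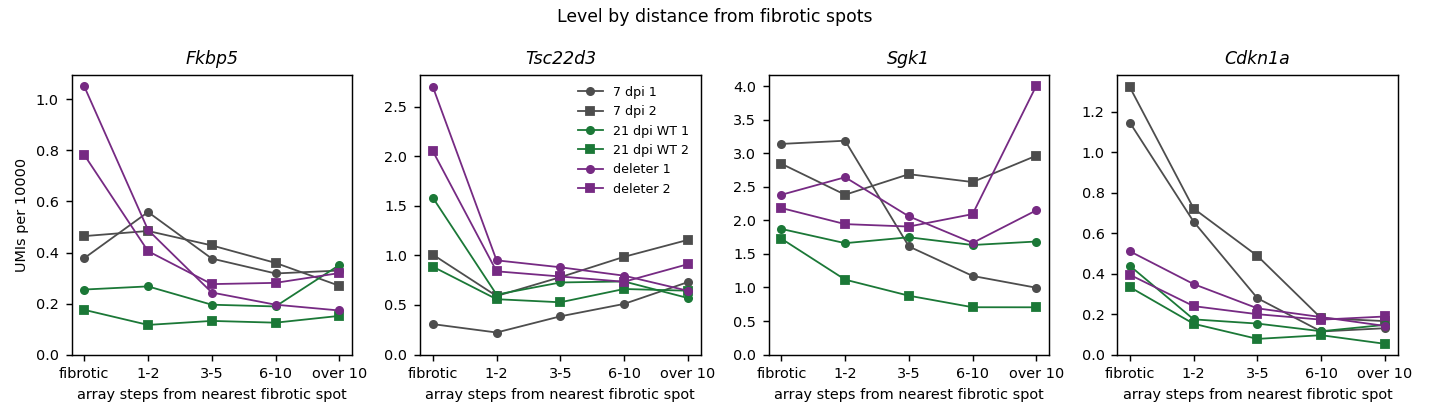
Levels of Fkbp5, Tsc22d3, Sgk1 and Cdkn1a (UMIs per 10000) by distance in array steps from the nearest fibrotic spot, for the 6 slices at 7 and 21 dpi. Fkbp5 falls from 1.05 to 0.173 in deleter slice 1, and Cdkn1a is highest in fibrotic spots in all 6 slices, with 1.32 there and 0.165 beyond 10 steps in slice 2 at 7 dpi.

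Several other genes of the group stood higher in fibrotic spots of the deleter slices. Tsc22d3 (chrX:140539528-140600659, minus strand) encodes GILZ, an inhibitor of inflammatory transcription factors. Its level was 0.307 and 1.01 at 7 dpi, 1.58 and 0.887 in wild type at 21 dpi, and 2.70 and 2.05 in the deleter slices, a log2 difference between the genotypes of 0.96 (SE 0.26). The slices at 7 dpi differed from each other by more than the wild-type slices at 21 dpi did. Among fibrotic spots at 21 dpi, those above the median Col1a1 level held more Tsc22d3 than those below it: 2.25 against 0.870 and 1.14 against 0.629 in wild type, and 3.80 against 1.66 and 3.12 against 1.21 in the deleter slices. At 7 dpi, slice 1 had the opposite order, 0.177 against 0.456, on 8 and 18 UMIs.

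Sult1a1 (chr7:126672865-126676432, minus strand), a sulfotransferase for phenols and hormones, had a fibrotic level of 0.154 and 0.164 at 7 dpi, 0.402 and 0.182 in wild type at 21 dpi, and 0.821 and 0.482 in the deleter slices. The genotype difference was 1.18 (log2), but it was 1.83 without wild-type slice 1 and 0.68 without wild-type slice 2. Per1 (chr11:69095217-69109960, plus strand), a repressor in the circadian clock, had 0.201 and 0.533 at 7 dpi, 0.416 and 0.263 in wild type at 21 dpi, and 0.631 and 0.658 in the deleter slices. Per1 was lower in fibrotic than in Col1a1-free spots of the 4 wild-type slices at 7 and 21 dpi, at 0.454 to 0.638 times, and was higher in both deleter slices, at 1.29 and 1.11 times.

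The lowest counts belonged to Plin4 (chr17:56100591-56109803, minus strand), a coat protein of lipid droplets, and Zbtb16 (chr9:48654297-48836222, minus strand), a zinc finger transcription factor. Plin4 had 1 to 9 UMIs in the fibrotic spots of a wild-type slice at 7 or 21 dpi and 16 and 17 in the deleter slices. The corresponding levels were 0.0118 to 0.0210 and 0.0623 and 0.0468. Plin4 is also a gene of fat cells, and of 4 adipocyte markers (Adipoq, Plin1, Cidec, Lep) 2 had no UMI in any fibrotic spot and the summed level of all 4 was at most 0.00894. The part of fat cells was not tested. Zbtb16 had 1 to 11 UMIs in the fibrotic spots of each slice from 7 dpi on, too few for an order between slices.

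The remaining genes differed less between the genotypes. Ddit4 (chr10:59949669-59951834, minus strand), an inhibitor of mTORC1 signalling, had 0.380 and 0.189 in fibrotic spots of wild type at 21 dpi and 0.510 and 0.336 in the deleter slices, so the genotypes overlapped. Sgk1 (chr10:21882184-21999903, plus strand), a kinase that regulates ion channels and transporters, had 1.87 and 1.73 against 2.38 and 2.18. Cdkn1a (chr17:29090976-29100727, plus strand), which encodes the cell-cycle inhibitor p21, had 0.438 and 0.333 against 0.510 and 0.394, again with overlap.

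Of the 9 genes tested in fibrotic spots, 6 (Fkbp5, Tsc22d3, Sgk1, Per1, Sult1a1 and Plin4) were higher in both deleter slices than in both wild-type slices at 21 dpi, against 17.5% of all genes. The receptor gene Nr3c1 lay below, and Zbtb16, with 1 to 9 UMIs, was below the count filter. The genes were chosen partly on this contrast, so the count is a description. The median log2 difference of the 9 genes was 0.95, and that of all genes tested was close to 0. In Col1a1-free spots the differences were smaller for Fkbp5 (0.58) and Tsc22d3 (0.41) and larger for Cdkn1a (1.17) and Sgk1 (1.06).

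Other values moved with the genotype in fibrotic spots. The summed level of 5 fibroblast markers was 62.2 and 76.1 in wild type at 21 dpi and 99.7 and 105 in the deleter slices. The summed level of 6 lymphocyte and plasma cell markers, all detected, was 1.93 and 2.64 against 2.78 and 6.81. Macrophage markers (5 genes) had 94.4 and 82.2 against 78.8 and 71.5, and neutrophil markers (4 genes) 2.03 and 4.16 against 1.00 and 1.30. The mitochondrial share of UMIs was 7.63% and 6.71% in wild type and 8.89% and 10.1% in deleter. Cthrc1, the gene that drives the Cre, had 0.219 and 0.175 in wild type and 0.101 and 0.132 in deleter, on 26 to 50 UMIs a slice. Their part in the member differences was not tested. Xist was found in deleter slice 1 and Y-linked transcripts in deleter slice 2 and both wild-type slices. The deleter slices thus came from mice of both sexes, and the wild-type slices at 21 dpi from males. The part of sex was not tested.

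Genes that the rule did not name were compared as well. Their list was also chosen with earlier results of these data known, so the counts below are not independent evidence. Among 21 further glucocorticoid-induced genes, 20 were tested in fibrotic spots between the genotypes with the quasi-likelihood test of edgeR, in which each slice entered as 1 sum of UMIs. None (0) passed the threshold of 0.05 after Benjamini-Hochberg adjustment over 12945 genes. At an unadjusted p under 0.05, 7 stood out, and DESeq2 called 0. The median log2 difference was 0.32, 17 of the 20 were higher in deleter, and 8 were higher in both deleter slices than in both wild-type slices, against the 17.5% of all genes given above. Klf9, a transcription factor of hormone responses picked here after its values were seen, had 1.61 and 1.67 in wild type and 3.04 and 2.52 in deleter, with a log2 difference of 0.77 (SE 0.13) and an edgeR adjusted p of 0.451. Across all genes 1 was called (0.00772%), namely Esr1, outside the naming rule and seen before, and 899 had an unadjusted p under 0.05. In Col1a1-free spots 0 of 13679 genes were called by edgeR (0.00%), with 487 at an unadjusted p under 0.05 and 7 called by DESeq2. There 20 of the 21 further genes were higher in deleter, with a median of 0.41, 7 at an unadjusted p under 0.05 and 0 called by DESeq2.

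**Figure D4:**
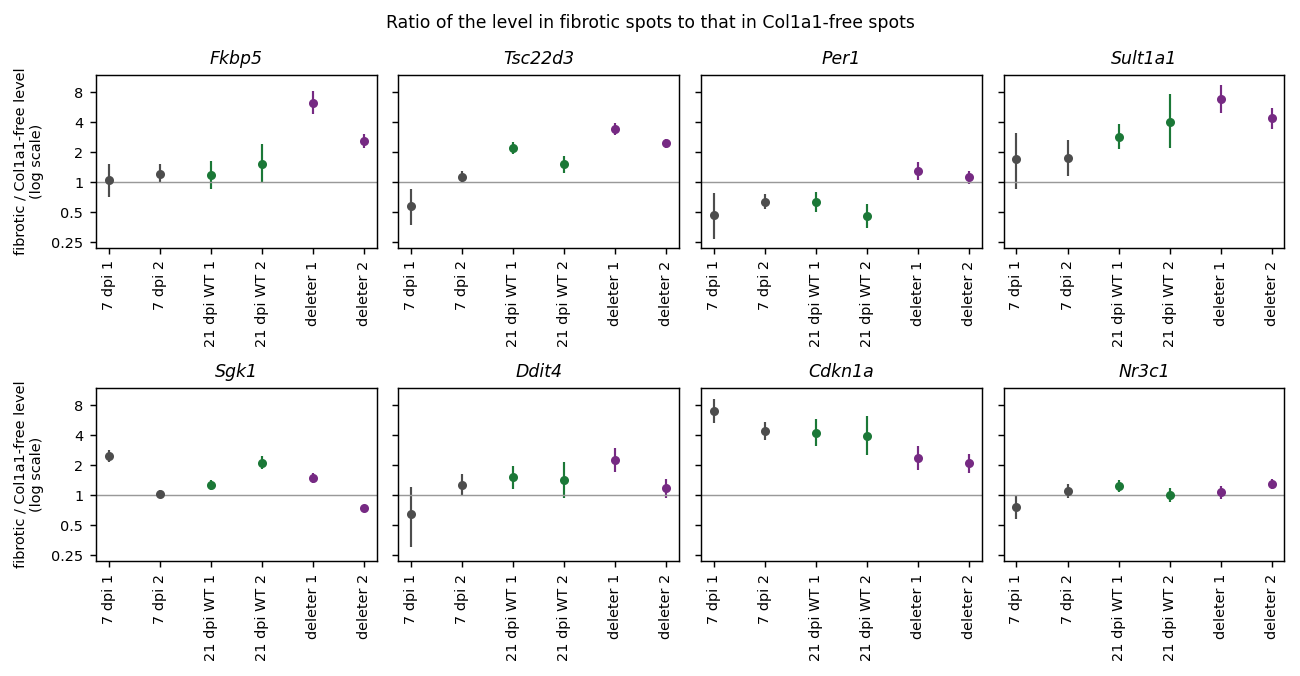
Ratio of the fibrotic to the Col1a1-free level of 8 genes (not Zbtb16 and Plin4, with few UMIs), on a log axis, 1 point per slice at 7 and 21 dpi, with bars for the 95% counting interval. Fkbp5 lies at 1.05 to 1.52 in wild type and at 6.23 and 2.59 in deleter, and Cdkn1a lies above 2 in every slice.

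Between 7 and 21 dpi in wild type, Cdkn1a, Fkbp5 and Sgk1 were higher at 7 dpi in fibrotic spots. Cdkn1a had 1.15 and 1.32 at 7 dpi and 0.438 and 0.333 at 21 dpi, a log2 difference of 1.70 (SE 0.19, edgeR adjusted p = 0.00175). For Fkbp5 the difference was 1.02 (SE 0.24, edgeR adjusted p = 0.0437), and for Sgk1, with 3.14 and 2.85 at 7 dpi, it was 0.73 (SE 0.16, edgeR adjusted p = 0.0353). These 3 of the 8 genes tested had both slices at 7 dpi above both wild-type slices at 21 dpi, against 24.5% of all genes. Another 2, Sult1a1 and Nr3c1, had both slices at 7 dpi below. In all, edgeR called 3 of 8 genes tested higher and 0 lower, against 1.60% and 2.30% of all genes. Zbtb16 and Plin4 were below the count filter. DESeq2 called 1 of the 8, Cdkn1a, against 304 of all 12912 genes. The choice of genes set no condition on time, but it was made with these same levels known. The p-values and the counts are therefore not independent evidence about the group.

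The call of Cdkn1a held in all 11 alternative settings, with adjusted p from 1.1e-13 to 0.0241. Fkbp5 and Sgk1 each lost theirs in 6 of 11, with adjusted p from 0.000948 to 0.301 and from 0.00275 to 0.152. Fkbp5 lost its call without slice 1 or slice 2 at 7 dpi (0.0839 and 0.301) and without wild-type slice 2 at 21 dpi (0.154), and Sgk1 without the same slices (0.126, 0.069 and 0.152). The slices at 7 dpi carried Xist and those of wild type at 21 dpi Y-linked transcripts, and all 5 sex-linked genes were called between them, so sex cannot be told apart from time. Fibrotic spots were shallower at 7 dpi, with medians of 4923.5 and 9206.5 UMIs against 10828 and 13879 at 21 dpi. The part of depth was not tested. Microglia markers (5 genes, all detected) summed to 24.2 and 18.4 at 7 dpi and 13.6 and 15.5 at 21 dpi, macrophage markers to 49.2 and 66.6 and to 94.4 and 82.2, and oligodendrocyte markers to 34.5 and 35.1 and to 24.6 and 115. Their part was not tested.

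Tsc22d3, Sult1a1 and Nr3c1 had lower values at 7 dpi in fibrotic spots, with log2 differences of -0.75, -0.84 and -0.50, but edgeR adjusted p values of 0.384, 0.279 and 0.144. Of 20 further glucocorticoid-induced genes 2 were called, both lower at 7 dpi: the metal-binding metallothioneins Mt2 at -1.33 (edgeR adjusted p = 0.0077) and Mt1 at -1.18 (edgeR adjusted p = 0.0124). Mt1 stood at 6.72 and 9.44 in the earlier slices and at 21.2 and 15.5 in the later ones. The median of the 20 was -0.25. Of 9 p53 targets, the list that shares an input with Cdkn1a, 0 were called by edgeR or DESeq2, 3 had an unadjusted p under 0.05 (2143 of 12912 among all genes), and 7 did not overlap and were higher at 7 dpi, against 24.5% of all genes. Of 8 hypoxia-induced genes 6 were tested and 1 was called: Ndrg1, lower at 7 than at 21 dpi by 1.55 on the log2 scale. The median of the 6 was 0.40. Of these, 4 did not overlap and were higher at 7 dpi, against the 24.5% of all genes, and 1, Ndrg1, did not overlap and was lower. In the circadian list 0 of 12 were called by either tool, and 0 had an unadjusted p under 0.05.

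In Col1a1-free spots 0 of the 10 genes were called by edgeR between 7 and 21 dpi, against 2.34% of all genes, with 2 at an unadjusted p under 0.05 and 0 called by DESeq2. The values nearest to a call were those of Fkbp5, with a log2 difference of 1.11 (SE 0.28, edgeR adjusted p = 0.116), and Cdkn1a, with 1.25 (SE 0.34, edgeR adjusted p = 0.14). These differences were as large as the Fkbp5 difference in fibrotic spots. The further genes had 0 of 20 called, 5 at an unadjusted p under 0.05 and 0 by DESeq2.

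The slice at rest and the slice at 2 dpi were set side by side in Col1a1-free spots alone, since their fibrotic spots held 2 and 8 Fkbp5 UMIs. Cdkn1a stood at 0.119 (0.102 to 0.137) at rest and 0.358 (0.325 to 0.394) at 2 dpi, the highest Col1a1-free level of any slice. Per1 was 0.687 at rest and 0.409 at 2 dpi, Tsc22d3 0.594 and 0.376, and Ddit4 0.192 and 0.116, each with intervals that did not overlap. The slice at 2 dpi also had shallow spots and 176 UMIs per 10000 of 4 choroid plexus markers, against 5.54 at rest. This sum differed within the later groups as well. It was 42.2 and 2.32 at 7 dpi, 78.8 and 3.65 in wild type at 21 dpi, and 4.68 and 50.4 in deleter. The part of depth and of the tissue cut was not tested.

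Of the genes compared between fibrotic and Col1a1-free spots of wild type, Cdkn1a had the widest gap of the 10. It was 7.08 and 4.41 times as high in fibrotic spots at 7 dpi and 4.26 and 3.93 times at 21 dpi, and it declined from bin to bin over the first steps away from them, from 1.15 to 0.656 and 0.278 and from 1.32 to 0.721 and 0.487 at 7 dpi. Sult1a1 had ratios of 1.70 to 4.01. Tsc22d3 went from 0.571 and 1.12 at 7 dpi to 2.21 and 1.51 at 21 dpi. At 7 dpi its lowest level, 0.222 and 0.591, lay 1 to 2 steps outside fibrotic spots rather than far from them. The change of these ratios with time is given without a test, since the tissue classes took part in the choice of the genes.

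Genes outside the group were set in the same comparison, in which 28.8% of all genes were called higher in fibrotic spots and 27.9% lower. Of 20 further glucocorticoid-induced genes, 5 were higher and 4 lower, with a median of -0.01. Neither count exceeded the share of all genes. The highest were Angptl4, an inhibitor of lipoprotein lipase (log2 difference 3.80), Nfkbia, an inhibitor of NF-κB (1.65), Cebpd, a transcription factor of acute inflammation (1.53), and Mertk, a receptor for the uptake of dead cells (1.45). Of the p53 targets 7 of 9 were higher and 1 was lower, with Gdf15 at 3.23 and Eda2r at 3.15. Of the circadian genes 1 of 12 was higher and 8 were lower, with Cry2 at -1.42 and Ciart at -1.26. Of the immediate early genes of neuronal activity 5 of 9 were lower and 0 higher, with Npas4 at -2.37 and Arc at -2.11. Neuron markers (6 genes) summed to 8.02 to 12.3 in fibrotic and 30.9 to 63.9 in Col1a1-free spots of these slices, and their part was not tested.

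For genes outside the group, the difference of the fibrotic excess between the time points was fitted as an interaction. It was called by edgeR in 4.01% of all genes and in 4 of the 20 further glucocorticoid-induced genes, all with a fibrotic excess that was smaller at 7 than at 21 dpi: Cebpd (-2.36), Mt2 (-2.15), Mt1 (-1.57) and Nfkbia (-1.14). Mt2, for one, had 2.11 and 2.41 in fibrotic and 3.15 and 2.74 in Col1a1-free spots at 7 dpi, against 6.93 and 4.52 and 2.21 and 1.19 at 21 dpi. Fibrotic spots were thus the poorer class at 7 dpi and the richer class at 21 dpi.

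The receptor gene Nr3c1 varied little. In fibrotic spots it was 0.756 and 0.833 at 7 dpi, 1.14 and 1.12 in wild type at 21 dpi and 1.00 and 1.02 in deleter, and in Col1a1-free spots it ran from 0.750 to 1.11 over all 8 slices. From 7 dpi on, its range in fibrotic spots was narrow beside that of Fkbp5, which ran from 0.175 to 1.05 there. At 2 dpi fibrotic Fkbp5 was 1.42, on 8 UMIs. Fkbp5 was picked for its difference between the genotypes, so its wider range is a description. Among 11 tested genes of hormone access, 7 were lower in fibrotic spots of wild type and 1 was higher, against 27.9% and 28.8% of all genes. The lower ones included Hsd11b1, which regenerates active hormone (log2 difference -1.60), the mineralocorticoid receptor Nr3c2 (-1.41), the coactivator Ncoa1 (-1.07) and the chaperone Hsp90aa1 (-1.01). The higher one was Abcb1a, the efflux pump of the blood-brain barrier, at 1.66. In these wild-type slices endothelial markers (6 genes) summed to 5.82 to 7.69 in fibrotic and 2.47 to 3.41 in Col1a1-free spots. Neuron markers summed to 8.02 to 12.3 and 30.9 to 63.9. The part of these cell types was not tested. Abcb1a was also the 1 gene of the list called between time points in fibrotic spots. It had 0.283 and 0.337 at 7 dpi against 0.930 and 0.561 at 21 dpi, a log2 difference of -1.22 (edgeR adjusted p = 0.0294). Between the genotypes 0 of 11 were called in fibrotic spots by edgeR or DESeq2, and 0 had an unadjusted p under 0.05.

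Where these genes lie outside the scar was asked with marker genes of brain cell types, which the choice of genes had not used. In each of the 8 slices the 20% of Col1a1-free spots richest in a type's markers were set against the poorest 20%, with slice as a block, and the markers themselves were left out. Oligodendrocyte-rich tissue had more Plin4, by 4.02 on the log2 scale (SE 0.44, edgeR adjusted p = 5.64e-06) and in 8 of 8 slices. The counts were small, 1 to 22 UMIs in the rich and 0 to 3 in the poor spots of a slice. Sgk1 was higher by 1.22 (SE 0.30, edgeR adjusted p = 0.00419) in 7 of 8 slices. Its level reached 8.51 in the rich spots of deleter slice 2 against 1.16 in the poor spots, and wild-type slice 2 at 21 dpi was the exception, with 0.751 against 1.11. Ddit4 (0.78) and Tsc22d3 (0.60) were higher in 6 of 8 slices each, and Per1 was lower by 0.30 in 8 of 8, a call lost in all 3 alternatives. In all, 4 of 9 genes tested were higher and 1 lower, against 22.4% and 22.1% of all genes.

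In neuron-rich tissue 0 of 9 genes were higher and 5 were lower, against 26.2% and 30.6% of all genes. Sgk1 fell by 1.36 on the log2 scale (SE 0.14, edgeR adjusted p = 1.66e-05), in 8 of 8 slices, with 0.592 to 1.79 in the rich and 1.01 to 6.06 in the poor spots. Plin4 fell by 2.56, Cdkn1a by 0.97, Sult1a1 by 0.79 and Ddit4 by 0.67. The calls of Cdkn1a and Sult1a1 were each lost in 1 of 3 alternatives, and Plin4 could be tested in only 1 of them. Cdkn1a was lower in 7 of 8 slices and higher at rest, with 0.148 in the rich and 0.0707 in the poor spots. The contrasts of the cell types drew on the same Col1a1-free spots, so they are not independent of each other. Astrocyte-rich tissue had 4 of 9 genes higher and 0 lower, against 15.5% and 12.3% of all genes. Tsc22d3 was higher by 0.72 (SE 0.14, edgeR adjusted p = 0.00178) and Nr3c1 by 0.30 (SE 0.08, edgeR adjusted p = 0.014), each in 8 of 8 slices, though the call of Nr3c1 was lost in 2 of 3 alternatives. Plin4 was higher by 2.14, with a call that could be tested in only 1 of 3 alternatives, and Sult1a1 by 0.69 in a call lost in all 3. In endothelium-rich tissue 1 of 8 was called, Tsc22d3 at 0.38, likewise lost in all 3 alternatives, against 11.4% of all genes in either direction.

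Fkbp5 was called in none of the 4 contrasts. Its log2 differences were -0.44 (edgeR adjusted p = 0.102) in oligodendrocyte-rich and -0.32 (edgeR adjusted p = 0.123) in neuron-rich tissue, and the latter became -0.49 (edgeR adjusted p = 0.0462) with the 6 wild-type slices alone. Zbtb16 was below the count filter in all 4. Of the further glucocorticoid-induced genes, 12 of 19 were higher and 0 lower in oligodendrocyte-rich tissue, and the same count held in astrocyte-rich tissue. Plekhf1, a protein of endosomes, stood at 2.65 and 1.45 in these, and Pdk4, a brake on glucose oxidation, at 2.09 and 1.53. In neuron-rich tissue 2 of 19 were higher and 12 lower, and in endothelium-rich tissue 6 of 18 were higher, led by Angptl4 at 1.22.

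**Figure D5:**
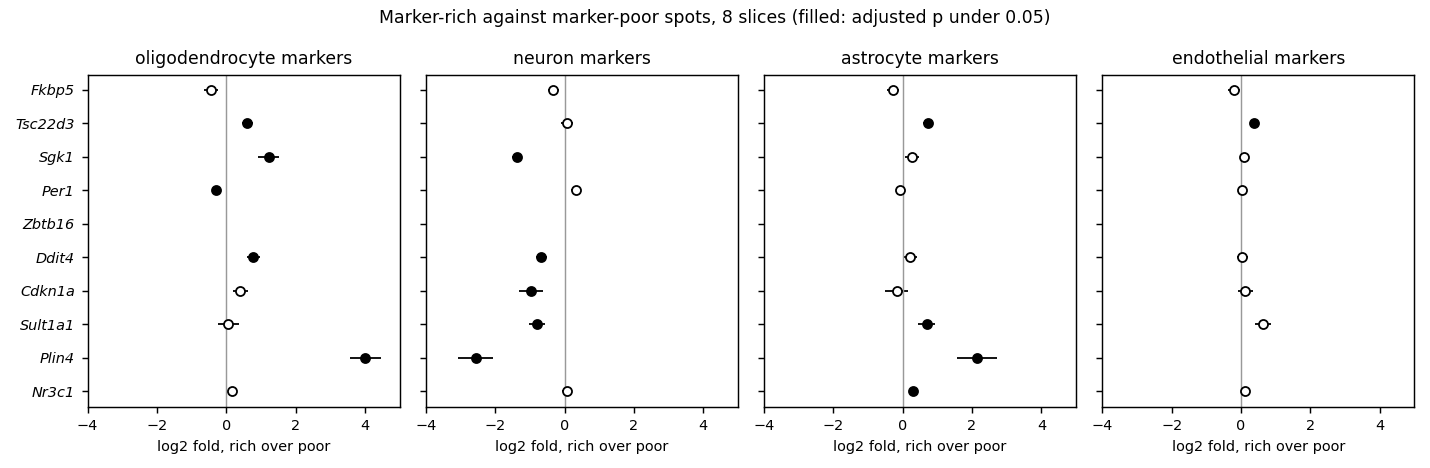
Log2 difference between marker-rich and marker-poor Col1a1-free spots, with SE, for the genes tested in each of 4 cell types over 8 slices, with called genes filled. Sgk1 lies at 1.22 for oligodendrocytes and at -1.36 for neurons, and Fkbp5 is open in all 4.

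The genes whose Col1a1-free level rose and fell most like that of Fkbp5 over the 8 slices were Shpk (Pearson r 0.979), Arhgef26 (0.966), Sh3bp4 (0.958), Cenpt (0.956) and Ecel1 (0.954), of 13879 genes with at least 100 UMIs. The correlations are of log2 levels and describe slices that share areas and time points. None of the other 9 glucocorticoid-responsive genes was among these 5.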

How the data were processed

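Visium libraries of mouse brain slices were analysed as 8 slices on 4 capture areas. The authors aligned reads to mm10 with Space Ranger 2.0.0, and the deposited counts are raw UMIs of each gene in each spot, not normalized, and the authors' mark of spots over tissue was kept. The deposited spot positions (a number of another kind) gave 2 connected pieces of tissue per area, each taken as 1 slice and 1 mouse, numbered by array column. Labels do not say which piece of the first area was at rest: the smaller one was taken as rest after the outline in the study's drawing. The members and lists were chosen with earlier results of these data known.

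Counts were summed per slice and spot class. Genes were tested with edgeR 4.0.16 (TMM, filterByExpr, quasi-likelihood F test) in R 4.3.3, with Benjamini-Hochberg adjustment over all genes tested and a threshold of 0.05, on 2 slices against 2, or with slice as a block. SE was obtained from the fold change and F (log2 change over the root of F). P-values measure the spread between slices, which here are few. Col1a1 set the classes and was not tested between them. Marker contrasts used Col1a1-free spots with at least 1000 UMIs. Besides the 10 genes, at most the 4 genes with the largest change among those called in a list and comparison are named, and the 5 genes most correlated with Fkbp5. Klf9 and Esr1 fall outside this rule in the places where they are said to have been chosen after their values were seen. On simulated counts, the test of 7 against 21 dpi in fibrotic spots recovered 23% of 2-fold and 90% of 4-fold changes with 6.61% false calls (12860 genes), and fibrotic against Col1a1-free spots 63%, 98% and 3.01% (13868 genes). The simulation gave all genes the same fixed spread and changed only genes above a minimum mean count. These rates therefore need not hold for the real slices. Alternatives were DESeq2 1.42.0, library sizes without TMM, no filter on low counts, Col1a1 minimums of 3 and 10 per 10000, spots with at least 1000 UMIs, Col1a1-free spots at least 3 steps from fibrotic ones, all tissue spots, 6 slices sharing 1 spread, deleter slices added, no slice block, the richest and poorest 10% by markers, wild-type slices alone, and each slice left out. Gene positions are from GENCODE on GRCm38, and promoter windows from RefSeq. For Nr3c1 no position is reported here. Depth of whole slices is given as a range, and median depth of fibrotic spots for the slices at 7 and 21 dpi. Intervals cover counting error only.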

Additional observations from a re-analysis of the deposited data

Results flagged for a closer look

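The fibrotic to Col1a1-free ratio of Per1 was below 1 in the 4 wild-type slices at 7 and 21 dpi and above 1 in both deleter slices. On the mean log2 scale, deleter exceeded 7 dpi by 1.13 and wild type at 21 dpi by 1.17, and this difference was not tested. For Plin4 the same ratio in deleter exceeded that at 7 dpi by 1.17 (log2), on 1 to 34 UMIs per class and slice, and was not tested. In wild type, the fitted difference of the fibrotic excess between 7 and 21 dpi was called for Cebpd (-2.36 on the log2 scale), Mt2 (-2.15), Ndrg1 (-1.65), Mt1 (-1.57) and Nfkbia (-1.14), all smaller at 7 dpi.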

How the results depend on the processing

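Directions reported for single genes reversed in 0 of 515 alternative fits. Genes within 1 SE of 0 and not called were given no direction and are not among these fits. Where a difference was given with a test, 25 fits lost a call and 11 gained one. Where it was given without a test, lost and gained calls were not counted, and 40 fits moved by more than 1 SE. Of 320 recomputed levels 277 moved by less than the spread or counting interval, and of 80 recomputed counts of calls 49 stayed within 1.5 times. Genes called between 7 and 21 dpi in fibrotic spots, 503 as reported, were 304 with DESeq2, 1123 without a filter on low counts, 318 at a Col1a1 minimum of 3, and 236 to 863 with 1 slice left out. In Col1a1-free spots, 326 became 1525 without the filter, 203 at least 3 steps from fibrotic spots, 6 over all tissue spots, and 45 to 382 with 1 slice left out. Between the genotypes in fibrotic spots, 1 became 8 with DESeq2, 270 without the filter, 0 and 4 at Col1a1 minimums of 3 and 10, 3 when 6 slices shared the spread, and 1 to 155 with 1 slice left out, the most without wild-type slice 1. In Col1a1-free spots, 0 became 7 with DESeq2, 122 without the filter, and 0 to 3 with 1 slice left out. For the interaction with time, 567 became 346 with DESeq2, 1433 without the filter, and 60 to 776 with 1 slice left out, the fewest without slice 2 at 7 dpi. Endothelium-rich tissue, with 1364, had 566 for the richest and poorest 10%, 740 in the 6 wild-type slices and 571 with DESeq2, and astrocyte-rich tissue, with 3436, had 1910 in the 6 wild-type slices. Fibrotic against Col1a1-free spots, with slice as a replicate block, gave 8028 calls, and 7596 with no block. Slice numbers only name a slice, so no slices were paired between groups. The causes of these shifts were not tested. Col1a1 minimums of 3 and 10 were not run in Col1a1-free spots, which hold none. Depth limits Zbtb16 and Plin4, which had 0 to 17 UMIs in the fibrotic spots of a slice.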
